A study of Rattus norvegicus with 98 samples.

Results

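These data describe 1564 windows of the rat genome, each 1 kb long, in which histone H3 acetylated at lysine 27 (H3K27ac) was found in the amygdala and in few other brain regions. The genome (build Rn5, chromosomes 1 to 20) was divided into 1 kb windows, and a window was called occupied in a library when the peaks of that library covered 500 bp or more of it. A window was kept when it was occupied in 5 or more of the 8 amygdala libraries and in 15% or less of the libraries of all other regions, which is 12 or fewer of 84. The 1564 members were 0.55% of the 284178 windows occupied in any of the 92 libraries used, and 2.6% of the 60130 windows occupied in 5 or more of the 8 amygdala libraries. The members were thus selected on their measured occupancy in these libraries, and the contrast of the amygdala with other regions is given as a description, with no test.

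H3K27ac is deposited at active enhancers and promoters, and enhancers are the elements whose use differs most between cell types and brain regions. The basolateral amygdala (BLA) is a cortex-like structure dominated by excitatory projection neurons and is known for associating sensory cues with fear and reward. The centromedial amygdala (CMA) resembles the striatum, is rich in inhibitory neurons and sends the output of the amygdala to brainstem and hypothalamus. Fluoxetine is a selective serotonin reuptake inhibitor, and the amygdala is densely supplied by serotonergic fibres from the raphe nuclei.

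Male Long-Evans rats, 2 months old and naive to other treatment, received fluoxetine at 18 mg/kg per day in their drinking water for 6 weeks (FT) or water alone (Sham). Each library was made from tissue micropunches pooled over several animals, so that a replicate is a pool, and a group of 1 region and 1 treatment holds 2 pools at most. All regions of a replicate were punched from the same pool of animals, so that BLA and CMA libraries of a pool are not independent. The amygdala gave 2 Sham and 2 FT libraries of BLA and the same numbers of CMA. The other 84 libraries came from 22 regions, and the 2 libraries of HB were left out of the rule. Bulk tissue does not tell whether a window gains acetylation in every cell or whether more cells of a type that carries it are present.

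The amygdala peak lists were of unequal length. The FT lists held 47654 to 52420 peaks and the Sham lists 31060 to 42070, and Sham BLA replicate 2 was the shortest. The peak lists carry no read totals, so that the depth of the libraries is unknown and a window without a peak is a window not called, not one without acetylation. An Rn5 annotation was not used here, and the windows are therefore given by position, without gene names or sequence.

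The regional labels of the amygdala libraries were checked with windows chosen without any BLA or CMA library. The 2120 windows restricted to the nucleus accumbens, a part of the striatum, were occupied at 10.9% to 74.1% in the 4 libraries labelled BLA and at 5.99% to 30.5% in the 4 labelled CMA, and BLA was higher in 4 of 4 pools. The 5986 windows restricted to neocortex were occupied at 3.04% to 31.1% in BLA and 19.4% to 48.7% in CMA, and CMA was higher in 4 of 4 pools. The 7478 windows restricted to the dentate gyrus gave the same order, with 2.35% to 17.9% in BLA and 12.2% to 31.9% in CMA. This goes against the cortex-like character of the BLA and the striatum-like character of the CMA, and the cause was not tested. All directions between BLA and CMA given here are therefore those of the libraries as labelled. Whole lists were otherwise most alike within a label. The Jaccard index, the share of occupied windows that 2 lists have in common, was 0.77 between the FT BLA libraries and 0.743 between the FT CMA libraries.

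Among the 8 amygdala libraries, occupancy of the members ran from 20.7% to 96.5%. FT CMA replicate 2 occupied 1510 of the 1564 members and replicate 1 occupied 1421. FT BLA replicate 2 occupied 1397 and replicate 1 occupied 1310. Every FT amygdala library thus held more members than every Sham amygdala library. Sham CMA replicate 2 held 1004 members, Sham CMA replicate 1 held 909 and Sham BLA replicate 1 held 834. Sham BLA replicate 2, the shortest of these lists, held 323. Divided by the length of each list, the range narrowed to 12.8 to 18.5 members per 1000 occupied windows in 7 libraries, with 7.08 in Sham BLA replicate 2.

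Libraries of other regions occupied 5 to 768 members, with a median of 86.5 (5.53%). The highest, FT NaCshell replicate 2 from the shell of the nucleus accumbens, held 49.1% of the members, more than Sham BLA replicate 2 and less than the other 7 amygdala libraries. The other 3 NaCshell libraries held 68 to 166. Without this library in the rule, 1704 windows were kept. The 2 HB libraries, which took no part in the rule, held 9 members in Sham and 229 in FT. The Sham HB list occupied 10363 windows in all, with a median peak width of 500 bp, and the FT HB list 77887 windows, with 1600 bp. The 2 counts are therefore not compared between treatments.

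**Figure D1:**
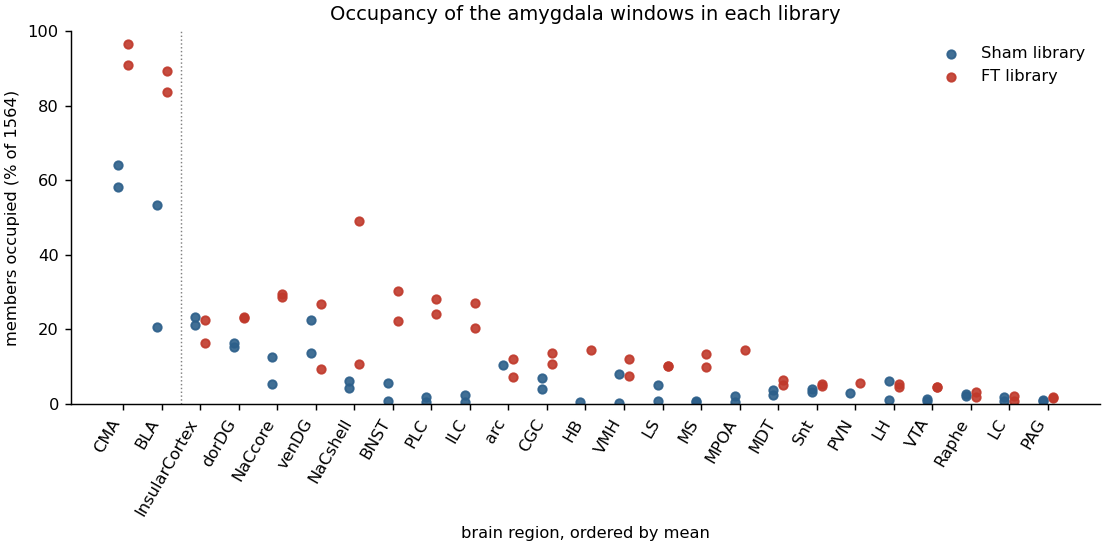
Share of the 1564 members occupied (y axis, %) in each Sham (blue) and FT (red) library of 25 brain regions (x axis, ordered by mean; the dotted line separates BLA and CMA from the rest). Amygdala libraries span 20.7% to 96.5%, and FT NaCshell replicate 2 stands at 49.1% among libraries of other regions with a median of 5.53%.

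Outside the amygdala, members recurred mostly in forebrain regions. The mean share of members occupied was 20.9% in InsularCortex, 19.5% in dorDG and 18.1% in venDG (the dorsal and ventral dentate gyrus), 19.0% in NaCcore, 17.5% in NaCshell and 14.7% in the bed nucleus of the stria terminalis (BNST), a structure continuous with the CMA that receives strong amygdala input. The prelimbic (PLC) and infralimbic (ILC) cortices followed with 13.6% and 12.6%. At the other end stood Raphe with 2.44%, the locus coeruleus (LC) with 1.34% and the periaqueductal grey (PAG) with 1.30%. For comparison, windows in 1 to 12 other libraries that were occupied in fewer than 5 amygdala libraries were occupied at a mean of 6.86% in InsularCortex, 3.10% in NaCshell, 2.74% in BNST, 4.32% in Raphe, 4.95% in LC and 9.25% in PAG. Raphe, LC and PAG thus held a smaller share of the members than of such windows, although members are in more libraries on average, and insular cortex, accumbens and BNST held a larger one.

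Members were rarely exclusive to the amygdala. The median member was occupied in 9 other libraries, taken from a median of 5 regions. In all, 619 members (39.6%) were in 10 to 12 other libraries and 240 stood at the limit of 12. Only 20 members (1.28%) were in no other library among the 84. Of these 20 windows, 1 was occupied in 7 amygdala libraries, 4 in 6 and 15 in 5. The window in 7 libraries, chr10:27606001-27607000, adjoined chr10:27605001-27606000, which was in 5, and no adjoining window of this pair was occupied in any other library. A comparable pair was chr10:73019001-73020000 and chr10:73020001-73021000, in 5 and 6 amygdala libraries, the first of which was also occupied in 1 HB library. These pairs were chosen for description after their values were seen.

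The rule gave 906 members in exactly 5 amygdala libraries (57.9%), 457 in 6, 172 in 7 and 29 in all 8 (1.85%). Members near the thresholds were many. Just inside the amygdala limit stood chr1:4105001-4106000 (1 BLA and 4 CMA libraries, 2 others) and chr1:16706001-16707000 (2 BLA and 3 CMA, 9 others). Just outside, chr1:4106001-4107000 and chr1:5409001-5410000 were each in 2 BLA and 2 CMA libraries, and 1951 windows in all missed the rule by 1 amygdala library. At the other limit, chr1:47085001-47086000 and chr1:47526001-47527000 were members with 12 other libraries, whereas chr1:22762001-22763000 and chr1:44146001-44147000 had 13 and were among 264 windows that missed it there.

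The same rule gave 1797 windows for the nucleus accumbens, 603 for the septum and 6934 for the dentate gyrus, each with 8 libraries. The dentate gyrus windows were occupied in all 8 of their libraries in 19.8% of cases and in no other library in 26.9%. The corresponding shares were 1.85% and 1.28% for the amygdala, 5.95% and 4.79% for the accumbens, and 0.663% and 4.15% for the septum. By these counts the amygdala windows had the smallest share found nowhere else among the 4 structures. The differences were not tested.

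Reading the windows in pools that did not choose them gave a measure of how far the pattern recurs. The rule was applied to replicate 1 libraries alone (3 or more of 4 amygdala libraries) and gave 1439 windows. In the amygdala libraries of replicate 2 these were occupied at 57.1% on average, from 13.8% to 88.3%, against a median of 5.39% over the 40 replicate 2 libraries of other regions. FT NaCshell replicate 2, at 53.2%, was the highest of those, and 2 of 4 amygdala libraries were above it. In the reverse direction, 1643 windows chosen in replicate 2 were occupied at 56.5% on average (39.0% to 77.1%) in the amygdala libraries of replicate 1. The other replicate 1 libraries had a median of 10.1% and a highest value of 31.0%, in FT PLC, and 4 of 4 amygdala libraries were above all of them.

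Between the amygdala nuclei, members leaned to the libraries labelled CMA. Of the 1564, 931 (59.5%) were occupied in more CMA than BLA libraries, 425 (27.2%) in more BLA than CMA libraries and 208 in equal numbers. Among all 60130 windows in 5 or more amygdala libraries, 22.1% leaned to CMA and 15.2% to BLA, but most of those windows were in all 8 libraries and could not lean. At matched numbers of libraries, the CMA-leaning share was 62.9% of members against 50.5% of all windows at 5 libraries, 50.1% against 32.1% at 6, and 76.7% against 65.1% at 7. The share of members leaning to CMA was thus above that of all windows at each number. All 4 CMA libraries occupied 585 members and all 4 BLA libraries 166. The numbers depended on the pools. Without Sham replicate 2, the rule (4 of 6 libraries) gave 595 members leaning to CMA (29.3%) and 478 to BLA, and without Sham replicate 1 it gave 879 (43.0%) and 164. Without FT replicate 1 these were 734 (52.7%) and 199, and without FT replicate 2 they were 686 (56.3%) and 154. Weighted to the same numbers of libraries, 45.8% of all windows leaned to CMA in the full set, and 20%, 37.3%, 39.1% and 38.7% without those pools in turn, so that the members were above it in each. Without the list of Sham BLA replicate 2 alone, 824 leaned to CMA and 463 to BLA by the share of libraries.

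Members that leaned to BLA and members that leaned to CMA recurred in different regions. BLA-leaning members were occupied at 27.0% ± 20.3 (SD, n = 12 libraries) in the nucleus accumbens and BNST, against 12% ± 12.1 for CMA-leaning members, and the former was higher in 12 of 12 libraries. The difference was 15.0 ± 9.71 percentage points, and 14.3 ± 9.9 without FT NaCshell replicate 2. In the 24 libraries of neocortex and dentate gyrus the order was the opposite, with 10.9% ± 6.19 of BLA-leaning and 17.9% ± 10.7 of CMA-leaning members, and CMA-leaning members were higher in 23 of 24. NaCcore showed the widest gap, at 33.2% against 11.6%. InsularCortex held 15.8% of BLA-leaning and 23.5% of CMA-leaning members, and PLC 9.24% and 16.1%. Both orders held for the means of FT and of Sham libraries taken alone, with 43.3% against 20.7% in the 6 FT and 10.7% against 3.28% in the 6 Sham libraries of accumbens and BNST. They have the same direction as the check of the labels above, and no test was made of whether they are particular to the members.

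**Figure D2:**
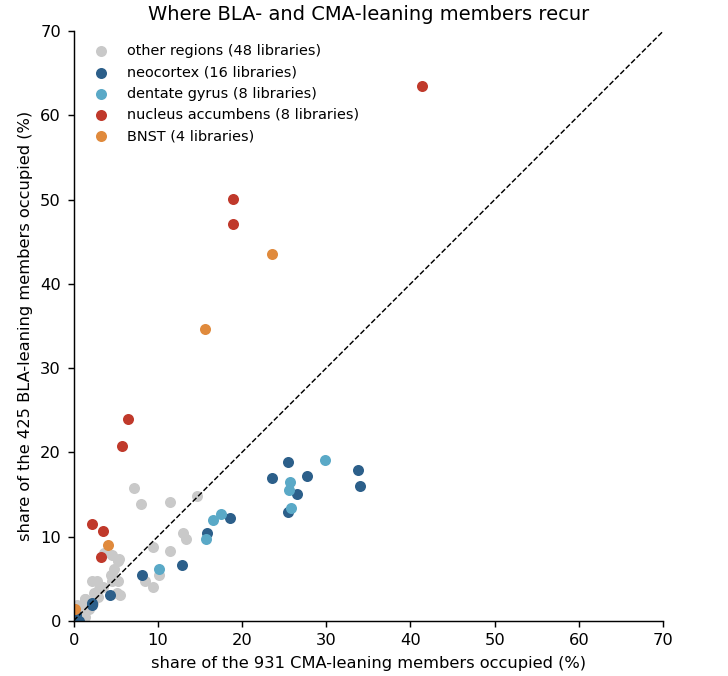
Share of the 425 BLA-leaning members (y axis, %) against the share of the 931 CMA-leaning members (x axis, %) occupied in each of 84 libraries of other regions; the dashed line marks equal shares. All 12 nucleus accumbens and BNST libraries lie above the line, and 23 of 24 neocortex and dentate gyrus libraries lie below it.

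The comparison of FT with Sham asked whether chronic fluoxetine was accompanied by a change at these windows. Of the 1564 members, 1367 (87.4%) were occupied in more FT than Sham amygdala libraries, 90 in more Sham than FT libraries and 107 in equal numbers. Members had a peak in 3.6 FT and 1.96 Sham libraries on average, 1037 members were in all 4 FT libraries and 50 in all 4 Sham libraries. The background over the 60130 windows was 38.6% higher in FT and 2.4% higher in Sham. That background includes 33749 windows in all 8 libraries, which cannot differ. At matched numbers of libraries the members were close to all windows, at 91.5% against 91.4% for 5 libraries, 81.6% against 77.5% for 6 and 95.9% against 93.9% for 7. The FT excess at the members is therefore near that of any window occupied in as many amygdala libraries, and it accompanies the longer FT lists. The treatment and the length of the lists cannot be told apart in occupancy.

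**Figure D3:**
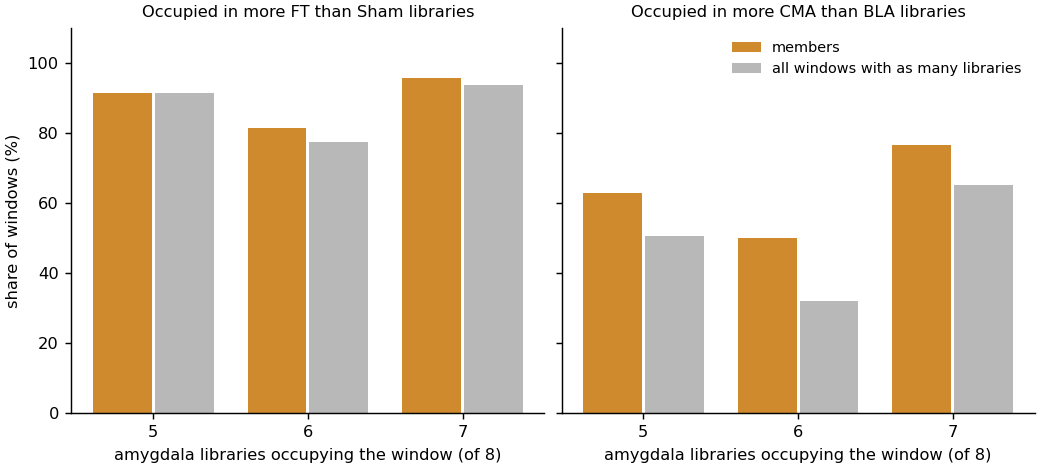
Share of windows (y axis, %) occupied in more FT than Sham amygdala libraries (left) and in more CMA than BLA libraries (right), by the number of amygdala libraries that occupy the window (x axis), for members (orange) and for all windows with as many libraries (grey). FT shares of members and background differ by little (91.5% and 91.4% at 5 libraries), whereas CMA shares of members are above the background at 5, 6 and 7 libraries.

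Within the nuclei, 459 members (29.3%) were in both FT and no Sham library of BLA, against 7.24% of the background, and 257 (16.4%) were so in CMA, against 4.72%. The reverse, both Sham and no FT library, was found for 8 members in BLA (0.512%, background 0.0748%) and 5 in CMA (0.32%, background 0.231%). These backgrounds are again lowered by windows present in every library. Between libraries of the same nucleus and replicate number, members found in FT alone numbered 620 in BLA replicate 1, 1105 in BLA replicate 2, 594 in CMA replicate 1 and 536 in CMA replicate 2. Members found in Sham alone numbered 144, 31, 82 and 30 in the same order. FT was thus ahead in every pair, and most in the pair with the shortest Sham list. No share over all windows is given for these pairs. At matched numbers of libraries the FT share of the members was close to that of all windows, as given above, but that share takes both nuclei together. No matched share was computed within a nucleus or a pair, so that these counts do not show an excess particular to the members.

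Counts outside the amygdala are given as a description. The rule chose 1367 members that were higher in FT amygdala libraries. An FT excess elsewhere is therefore not independent of that choice. In 17 of the 19 other regions with 4 libraries the mean number of members was higher in FT than in Sham, and in 13 both FT libraries were above both Sham libraries. PLC had 408 members on average in FT and 19 in Sham, and BNST 410.5 and 49.5. InsularCortex had 305.5 in FT and 347 in Sham, and venDG 282 and 283. Per 1000 occupied windows, both FT libraries were above both Sham libraries in 14 of the 19 regions, and both below in 1, InsularCortex. In the amygdala the same measure averaged 16.6 in FT and 9.94 in Sham for BLA, and 18.1 and 16.4 for CMA. The lists differed in length here too. PLC lists held 53233 and 49529 peaks in FT and 29756 and 18935 in Sham, whereas InsularCortex lists held 47504 and 52527 in FT and 48943 and 51919 in Sham. Treatment and the length of the lists cannot be told apart in these counts, and no share over all windows is given beside them. The differences in single regions were not tested.

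Lists of equal length lowered the counts. When each library was cut to its 18723 best-scoring peaks, 893 members (57.1%) were in no amygdala list and 141 were in 5 or more. FT amygdala libraries then held 21.1% of the members on average and Sham libraries 9.27%, against 90.1% and 49.1% in the full lists, so that the difference fell in percentage points but not as a ratio. In these lists 506 members were higher in FT, 76 in Sham and 982 equal. The members were chosen in the full lists, where 1367 were already higher in FT, and no share over all windows of the cut lists is given. The cut therefore does not separate the treatment from the length of the lists at the members. The highest mean of another region was 7.45%, but single libraries overlapped with the amygdala. FT NaCshell replicate 2 held 249 members (15.9%), more than either FT BLA library (221 and 208) and every Sham amygdala library (73 to 220). The FT CMA libraries held 451 and 441. FT NaCcore held 143 and 159, against 103 and 73 in Sham BLA.

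The members mostly ranked lower by peak score than other windows in as many amygdala libraries. The peak score is the highest value of the detection filter within a peak, and the percentile ranks it among all peaks of its own library. Ranks shift with the length of a list, and FT lists were longer, so that they are not compared between treatments. The median percentile at occupied members was 35.5 to 50.6 in the FT libraries and 22.3 to 34.9 in the Sham libraries. Over all windows in 5 or more amygdala libraries it was 70.8 to 72.7 and 66.0 to 68.8, but most of those windows were in all 8 libraries. At matched numbers the median of members was below that of all windows in 8 of 8 libraries for windows in 5 libraries (19.0 to 45.3 against 34.3 to 47.3), in 8 of 8 for windows in 6 (26 to 54.5 against 39.2 to 54.6), and in 6 of 8 for windows in 7. For the 29 members in all 8 libraries it was 19.4 to 61.9 against 71.1 to 82.3. Because occupancy in other regions chose the members, this is a description. Member peaks were 1100 to 1700 bp wide at the median in the 8 libraries, and the peak centre fell within the member window in 58.8% to 66.1% of cases.

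Occupancy around the members was local. A fall to either side is in part set by the rule, which chose windows by their occupancy at that position. Averaged over the 8 amygdala libraries, 69.6% of members were occupied, 26.8% and 24.2% of windows 1 kb to either side, and 4.0% and 3.98% at 2 kb. In other regions the same positions gave 9.49% at the member, 10.3% and 9.24% at 1 kb, and 3.96% and 3.76% at 2 kb. Both adjoining windows were within the limit of other libraries at 987 members (63.1%), and an adjoining window was occupied in 50% or more of the other libraries at 196 (12.5%). At 762 members (48.7%) no window within 5 kb exceeded the limit. About as many members thus stood apart from more widely used sites as lay close to them.

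**Figure D4:**
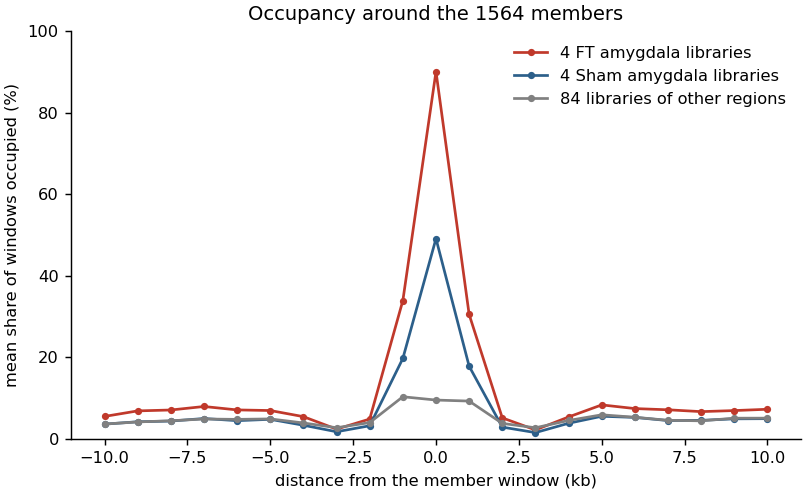
Mean share of windows occupied (y axis, %) at distances of up to 10 kb from the member window (x axis, kb) in FT amygdala (red), Sham amygdala (blue) and other libraries (grey). The amygdala curves peak at the member, at 90.1% in FT and 49.1% in Sham, and are close to the grey curve from 2 kb on either side.

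Members were spread over the genome. They formed 1462 loci, of which 1360 were single windows and 102 were pairs. The median distance to the nearest other member was 233 kb, and 250 members (16.0%) had another within 10 kb. The nearest window occupied in 90% or more of the other libraries lay at a median of 52 kb (quartiles 19 and 155 kb). For windows with 12 or fewer other libraries and fewer than 5 amygdala libraries this distance was 57 kb (18 and 175 kb). Of the 2629 megabase bins with any occupied window, 947 held a member, 547 held a single one and 21 held 5 or more. Per 1000 windows in 5 or more amygdala libraries, members numbered from 18.0 on chromosome 19 to 37.9 on chromosome 16, with 36.9 on chromosome 14 and 36.8 on chromosome 6.

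The densest megabase bins held 6 members, and 5 bins did so. In the first of these on chromosome 3, members lay between chr3:73403001 and chr3:73758000, in 5 or 6 amygdala and 4 to 10 other libraries each. All 6 were in 4 FT libraries and in 1 or 2 Sham libraries, and 3 leaned to CMA, 1 to BLA. In the second bin on the same chromosome, members lay between chr3:167084001 and chr3:167755000, in 5 to 7 amygdala and 4 to 12 other libraries. Here 5 of 6 leaned to BLA and none to CMA, in contrast to the members as a whole, and the adjoining windows chr3:167753001-167754000 and chr3:167754001-167755000 were in 6 and 7 amygdala libraries with 4 and 5 others.

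Adjoining members were joined into loci, which were ordered by the mean number of amygdala libraries over their windows, then by the fewest other libraries and then by position. The windows in all 8 amygdala libraries that have a neighbour in fewer, such as chr17:82127001-82128000 with 1 other library, come with the pairs. The first 8 loci were single windows in all 8 amygdala libraries, led by chr15:62841001-62842000 and chr16:22612001-22613000 with 2 others each. At chr15:62841001-62842000 the score percentile was 70.3 and 71.1 in FT BLA, 78.6 and 77.1 in FT CMA, 46.6 and 46.4 in Sham BLA, and 59.9 and 36.4 in Sham CMA. The other libraries were FT arc replicate 1 (arcuate nucleus) and FT VTA replicate 2 (ventral tegmental area). At chr16:22612001-22613000 it was 30.6 and 41.1 in FT BLA, 18.5 and 43.0 in FT CMA, 18.1 and 7.96 in Sham BLA, and 19.4 and 29.3 in Sham CMA. The other libraries were Sham venDG replicate 2 and FT NaCshell replicate 2.

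The windows chr1:137001001-137002000 and chr8:90705001-90706000 followed, with 6 other libraries each. At the former the percentile was 45.4 to 55.8 in the 4 BLA libraries and 59.6 to 73.7 in the 4 CMA libraries, and 3 of the 6 other libraries were of MPOA (medial preoptic area). At the latter it was 17.6 to 62.2 in BLA and 37.2 to 52.2 in CMA. The windows chr1:87036001-87037000 (7 others) and chr2:241541001-241542000 (8 others) had low percentiles, from 6.17 to 43.2 and from 2.07 to 53.6.

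The last of the 8 leading loci, with 9 other libraries each, were chr5:130147001-130148000 and chr8:122396001-122397000. At chr5:130147001-130148000 the percentile was 59.7 and 65.2 in FT BLA, 76.1 and 74.5 in FT CMA, 17.7 and 5.51 in Sham BLA, and 57.5 and 58.8 in Sham CMA. Its other libraries included 3 of BNST and 4 of PLC and ILC. At chr8:122396001-122397000 it was 76.7 and 74.5 in FT BLA, 83.5 and 81.3 in FT CMA, 61.7 and 49.8 in Sham BLA, and 55.0 and 64.4 in Sham CMA. The FT difference of both windows in centred score is given below, with its values by tag count.

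Of the 102 pairs of adjoining members, 3 were named by the number of amygdala libraries. chr17:82126001-82128000 had 4 other libraries, PLC and ILC of FT replicate 1 and 2 venDG libraries, and the windows on either side were in no other library. Its percentile was 61.2 and 59.7 in FT CMA and 22.9 and 29 in FT BLA. chr8:131585001-131587000 had 8 other libraries, among them 2 of NaCcore and 2 of BNST, and percentiles of 24.8 to 72.2. chr9:82324001-82326000 had 17 over its 2 windows, a mean of 11.5 each. At all 3 pairs Sham BLA replicate 2 occupied a single window and had the lowest percentile, 6.57, 24.8 and 3.32.

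Peak strength was then compared within the amygdala by limma on the log2 peak score, centred on the median of each library, over the 33749 windows occupied in all 8 libraries, with the other factor (nucleus or treatment) in the model. Values below are log2 differences with their standard errors, and adjusted p-values are Benjamini-Hochberg over all 33749 windows. The 4 libraries of a treatment came from 2 pools, so that the p-values of FT against Sham, which take libraries as independent, are too small. The model held no term for the pool. The p-values of BLA against CMA and of the interaction thus leave out that BLA and CMA of a pool share animals. Only the 29 members in all 8 libraries could be tested, since the others lack a peak in at least 1 library.

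In FT against Sham, 5 of the 29 members were higher in FT and none was lower. Over all windows tested, 4.96% were higher in FT and 4.85% lower. The median difference of the 29 members was 0.04, from -0.33 to 0.48, against -0.06 over all windows. The window chr8:122396001-122397000 was higher in FT by 0.42 ± 0.09 (limma adjusted p = 0.0231), chr5:130147001-130148000 by 0.47 ± 0.11 (limma adjusted p = 0.0267) and chr9:82324001-82325000 by 0.41 ± 0.10 (limma adjusted p = 0.0319). The others were chr17:75855001-75856000 with 0.39 ± 0.10 (limma adjusted p = 0.0333) and chr15:62841001-62842000 with 0.48 ± 0.14 (limma adjusted p = 0.0472). Without FT replicate 1, and likewise without FT replicate 2, no member was called, and the number of all windows called fell from 3309 to 1 and 0. Without Sham replicate 1 the calls were chr9:82324001-82325000 and chr11:54099001-54100000, the latter lower in FT, and without Sham replicate 2 they were chr8:122396001-122397000 and chr17:75855001-75856000. With the replicate number as a block, the call at chr15:62841001-62842000 was lost (limma adjusted p = 0.0592) and chr5:72962001-72963000 was called (0.48 ± 0.13, limma adjusted p = 0.0454). With quantile normalised scores the calls at chr9:82324001-82325000 (limma adjusted p = 0.0551) and chr15:62841001-62842000 (limma adjusted p = 0.0547) were lost, at differences of 0.50 and 0.49, and chr5:72962001-72963000 was called (limma adjusted p = 0.0135). The normalised tag count of the peak, which is deposited rounded, was also used in place of its score. By tag count 1 of 29 members was higher in FT, chr8:122396001-122397000, and 5 were lower. Of all 33749 windows, 365 were higher in FT by this measure and 2357 lower. By tag count chr5:130147001-130148000 differed by 0.21 (limma adjusted p = 0.184) and chr15:62841001-62842000 by 0.11 (limma adjusted p = 0.333). The differences were 0.07 at chr9:82324001-82325000 (limma adjusted p = 0.457) and 0.007 at chr17:75855001-75856000 (limma adjusted p = 0.954).

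Scaling also set the direction over all windows. Of the windows called in FT against Sham, 50.6% were higher in FT by centred scores, 69.3% by quantile normalised scores and 13.4% by tag counts. The direction of the FT difference over all windows thus depended on the measure of peak strength.

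In BLA against CMA, 12 of the 29 members differed, 1 higher in BLA and 11 higher in CMA. Over all windows 19.6% were higher in BLA and 18.2% higher in CMA, so that the share called was near the background (37.8%) and its direction was mostly CMA. The median difference of the members, BLA minus CMA, was -0.21. The window chr15:54755001-54756000 was higher in BLA by 0.71 ± 0.08 (limma adjusted p = 0.000124). Its centred log2 scores were -0.26 and -0.40 in Sham BLA, 0.01 and -0.10 in FT BLA, -1.03 and -1.0 in Sham CMA, and -0.86 and -0.71 in FT CMA. The widest difference was at chr12:14645001-14646000, at -1.79 ± 0.15 (limma adjusted p = 5.61e-05), with scores of 0.16 and -0.11 in Sham CMA, 0.57 and 0.62 in FT CMA, and -1.66 to -1.21 in the 4 BLA libraries. The windows chr1:25552001-25553000 (-1.08 ± 0.12, limma adjusted p = 9.51e-05) and chr6:2771001-2772000 (-1.11 ± 0.14, limma adjusted p = 0.000154) were also higher in CMA. In each of these 4 windows the BLA and CMA libraries did not overlap. The windows were named for the lowest p-values in each direction, so that such a separation follows from the choice. The share of all windows without overlap is not given. By tag count 7 of the 29 members were called, 1 higher in BLA and 6 in CMA. Of all 33749 windows, 8975 were called by tag count. Of the windows called, 76.2% were higher in BLA, against 52% by score. With a pool left out, 7 to 15 members and 8942 to 12264 of all windows were called.

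No window passed the test for an FT response that differed between BLA and CMA. The interaction of treatment and nucleus was called by limma at 0 of 33749 windows, with 2013 windows (5.97%) at an unadjusted p under 0.05 and a lowest adjusted p of 0.764. Of the 29 members, 6 had an unadjusted p under 0.05. The lowest p among them was at chr6:2771001-2772000, where the FT minus Sham difference in BLA was below that in CMA by 0.78 ± 0.16 on the log2 scale, without passing the adjustment (limma adjusted p = 0.764). An equal response of the nuclei is not shown by this.

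**Figure D5:**
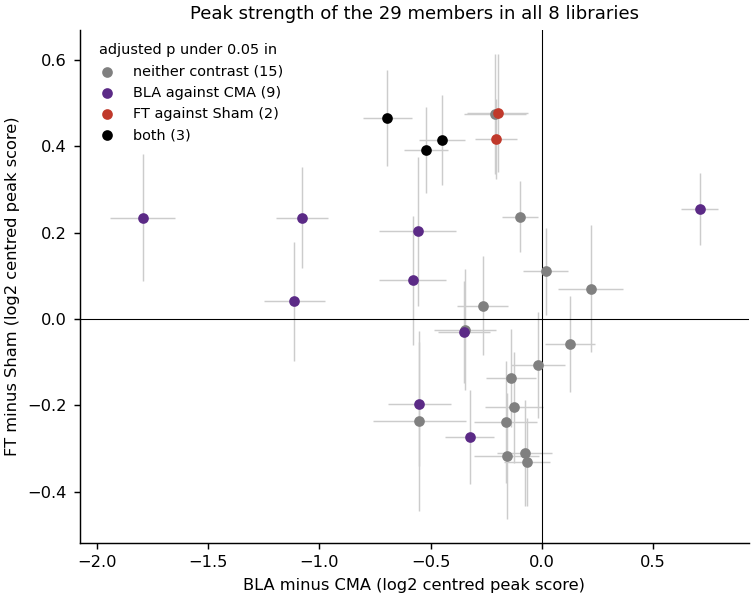
FT minus Sham difference (y axis) against BLA minus CMA difference (x axis) in centred log2 peak score for the 29 members in all 8 amygdala libraries, with standard errors as grey bars and limma calls in colour. Most points lie to the left of 0 (higher in CMA), and the 5 windows called in FT against Sham lie above 0, 3 of them also called in BLA against CMA.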

How the data were processed

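H3K27ac ChIP-seq of brain micropunches was analysed from 94 peak lists, 1 per library. Per the file headers and the study's methods, the authors mapped reads with BWA (version not given in the sources used here) to Rn5 and called peaks in each library with DFilter. The deposited columns hold the highest filter score, the −log10 p-value of the peak (4 to 200), a normalised tag count as a rounded score, and a false discovery rate in percent. Read depth and input libraries were not analysed here.

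Windows, occupancy and counts were computed with Python 3.11.15 and numpy 2.4.6. Windows covered by a peak in all 8 amygdala libraries were tested with limma 3.58.1 (R 4.3.3, two-sided, threshold 0.05), which was tested on simulated data. Same-numbered Sham and FT samples were processed in parallel, per the study's methods. Their deviations from the group means correlated at -0.01 in BLA and 0.01 in CMA, and a fit with this block was an alternative. P-values measure the spread between libraries, and BLA and CMA of a pool share animals. The windows, lists and tests were chosen with earlier results of these data known. The leading loci, adjoining members joined, have the highest mean number of amygdala libraries and then the fewest other libraries; pairs of adjoining members, the densest bins and the lowest p-values per direction were named likewise. The gene lists prepared for markers were not used, for want of an Rn5 annotation. Alternatives were other cover, p-value, list length, window start, rule limits, scaling and libraries left out.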

Additional observations from a re-analysis of the deposited data

Results flagged for a closer look

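Among the 4 libraries of NaCshell, FT replicate 2 occupied 768 of the 1564 members, whereas the other 3 occupied 68 to 166. Its gap to the nearest library, as a share of the whole range, was 0.86, above Dixon's 95% critical value for 4 samples. Of 23 groups tested in this way it was the only one found. Chance gives about 1 in 20 groups, so that 1 among 23 is near what chance gives. Its list held 48317 peaks, against 23675 in FT NaCshell replicate 1. Per 1000 occupied windows it held 9.6 members, against 1.87 to 5.01 in the other NaCshell libraries. In lists of equal length it held 249 members, against 37 to 138. Its nearest library over all windows was FT NaCcore replicate 1 (Jaccard index 0.65), not an amygdala library. The cause was not tested.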

How the results depend on the processing

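The number of members moved with the rule: 816 at a cover of 900 bp, 728 in lists of equal length, 753 and 2664 at 10% and 20% of other libraries, and 658 and 3515 at 6 and 4 of 8 amygdala libraries. Leaving out a pool gave 1218 to 2046. The share of members higher in FT was 91.7% at a −log10 p of 6 or more, 66.8% in lists of equal length, 81.8% and 75% at 6 and 4 of 8 libraries, and 83.2% without Sham BLA replicate 2 (the last was chosen after seeing the data, as was leaving out FT NaCshell replicate 2). It was 81.5% to 92.6% with a pool left out, and it stayed above 50% in all of these. A share above 50% is not particular to the members. In the full lists it was 91.4%, 77.5% and 93.9% of all windows in 5, 6 and 7 amygdala libraries. The share leaning to CMA, a result added after seeing the data, was 62.3% at a −log10 p of 6 or more, 62.2% in lists of equal length, 62.7% at 10% of other libraries, 54.9% and 50.3% at 6 and 4 of 8 libraries, and 29.3% to 56.3% with a pool left out. The different recurrence of BLA-leaning and CMA-leaning members, added after seeing the data, kept its direction and lay within the spread between libraries in all 15 alternatives run. The replicate block cannot change the FT share (87.4%), which is a count over the same libraries, and it changed no call over the members other than the calls at chr15:62841001-62842000 and chr5:72962001-72963000 given above, with 3096 windows called in FT against Sham and 12805 in BLA against CMA.

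Leaving out a pool changed the count of windows called in FT against Sham most, from 0 (without FT replicate 2) to 2950; 1096 were called without Sham replicate 2. The lone remaining pool was there assumed to vary like the other groups. Of the 12 members called in BLA against CMA, 1 reversed, chr14:88548001-88549000, with 0.0895 by tag count, BLA minus CMA. All 0 interaction calls stayed at 0. The depth of the libraries is unknown, so that windows without a peak may be limited by it. The 1535 members absent from at least 1 amygdala list could not be tested for strength.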
